A study of Homo sapiens with 27 samples.

Results

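Costimulatory and checkpoint ligands of the lymphoma B cell were followed through 8 genes chosen by name from the 27115 genes of the series. They are ICOSLG, CD80, CD86, CD70, TNFRSF14, CD274, PDCD1LG2 and CD58, and all 8 were found. The comparisons ask how the level of each gene differed between the lines and how it changed when SIRT3 was knocked down. RNA was sequenced from 3 cell lines of diffuse large B-cell lymphoma, Karpas422, OCI-Ly1 and HBL1, each carrying a lentiviral short hairpin RNA (shRNA) for 8 days. The shRNA was a scramble control (shCTRL) or 1 of 2 shRNAs against the mRNA of SIRT3, a mitochondrial deacetylase (shSIRT3-1 and shSIRT3-2). With 3 libraries in each of the 9 groups there were 27 libraries. The shCTRL cells also carry the vector, which co-expresses yellow fluorescent protein and a puromycin resistance gene, and the study cultured the cells for some days before puromycin was added. Each line is a single line, grown without T cells or other host cells. The study describes Karpas422 as of the oxidative phosphorylation type, OCI-Ly1 as of the germinal centre type and HBL1 as of the activated B-cell type. OCI-Ly1 was kept in Iscove's medium and the other lines in RPMI, so line and medium cannot be told apart for OCI-Ly1. The labels do not say whether the libraries of a group came from separate cultures, so that the p-values measure the spread between these libraries, which may be technical.

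T cells need a further signal beside that of their antigen receptor, and B cells deliver it mainly with ligands of the B7 and tumour necrosis factor (TNF) families. The B7 family binds receptors of the CD28 family on the T cell. CD80 and CD86 engage CD28 and the inhibitory receptor CTLA4, ICOSLG engages ICOS, which is needed for follicular helper T cells in the germinal centre, and CD274 (PD-L1) and PDCD1LG2 (PD-L2) engage the inhibitory receptor PD-1. Of the TNF superfamily, CD70 is the ligand of CD27, and TNFRSF14 (HVEM) is a receptor that also acts as ligand of BTLA and CD160. CD58 binds the T cell and natural killer cell receptor CD2, and CD58 and TNFRSF14 are among the genes often lost in B-cell lymphoma.

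Promoter sequences (RefSeq, GRCh38.p14, 250 bases before to 50 bases after each start site) were found for 6 of the 8 genes, in 7 windows. They were searched on both strands for 5 motifs of factors known to act on such ligands. The interferon motif IRF (GAAA, any 2 bases, GAAA) and the STAT motif GAS (TTCNNNGAA) were found in the CD274 promoter and in no other of the 7. The NF-kB motif (GGG, any 2 bases, TTTCC) was found in a CD86 promoter and in no other of the 7. The 5 matches are shown because they are the only ones in these promoters, with the motif in capitals and the flanking bases in lower case. The 2 IRF matches overlap each other, and both lie on the reverse strand.
CD274 GAS, chr9:5450408-5450434: tccgccgatTTCACCGAAggtcaggaa
CD274 IRF, chr9:5450325-5450352: actgacatgTTTCACTTTCtgtttcatt
CD274 IRF, chr9:5450331-5450358: atgtttcacTTTCTGTTTCatttctata
CD86 NF-kB, chr3:122077693-122077720: gctccctttGGGGGTTTCCcagggcttt
CD86 NF-kB (reverse), chr3:122077755-122077782: ctcatcagtGGAAATGCCCacctgccgg

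All 5 sequences are printed on the plus strand, which is also the strand of both genes. Of 35116 promoters of the same length, 7.66% held GAS, 3.57% IRF and 1.91% the NF-kB motif. The ATF4 motif CARE (TGATGNAA, in 3.62% of all promoters) and the AP-1 motif (TGANTCA, in 7.71%) were in none of the 7 windows. A match says only that these letters are there.

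The deposited values are CPM, the reads of a gene per 1000000 reads. A fold change is given as a log2 difference of log2(CPM + 0.1), fitted with limma, with the standard error (SE) and a p-value adjusted by Benjamini-Hochberg over all 13076 genes tested. A gene was called when its fold change exceeded 1.5 and its adjusted p was under 0.05. Genes had to reach 1 CPM in 3 libraries to be tested, and 7 of the 8 did. PDCD1LG2 never passed 0.952 CPM and is described without a test. CD80 passed with 9 libraries and CD58 with 6, each from 1 line.

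SIRT3 itself was lower in all 18 knockdown libraries than in every control of the line. It ranged from 9.14 to 16.4 CPM in shCTRL, from 1.06 to 2.79 with shSIRT3-1 and from 2.84 to 6.24 with shSIRT3-2. Reads assigned to genes ranged from 28694398 to 53405456 per library. The 7 B cell markers reached 1 CPM in every line. The 5 activated B-cell type markers summed to between 1850.1 and 1963 CPM in the HBL1 controls and to at most 224 CPM in those of the other lines. The sum of the 5 germinal centre type markers was highest in Karpas422, at 1017 to 1343 CPM in its controls, against 481 to 534 CPM in OCI-Ly1 and 155 to 182 CPM in HBL1. Of these markers, MME was higher in OCI-Ly1 (median over all its libraries 205 CPM) than in Karpas422 (114 CPM). All 6 macrophage and dendritic cell markers stayed under 1 CPM in Karpas422 and OCI-Ly1. In HBL1 their sum was 2.55 to 3.58 CPM in shCTRL and 0.414 to 1.03 CPM after knockdown, most of it ITGAX (CD11c), which B cells can express and which reached 2.93 CPM there. CSF1R reached 1.02 CPM in HBL1 (median 0.266 CPM), and CD14 and CLEC9A at most 0.112 and 0.0472 CPM. Their part in the HBL1 results was not tested. The 6 T cell markers summed to between 6.02 and 109 CPM, most of it LCK and, in Karpas422, CD3G, which was at 17.6 to 41.4 CPM there. CD3E and CD2 reached at most 0.474 and 0.0179 CPM. CD3D reached 1.59 CPM in Karpas422, where it was called lower with each shRNA (-0.79 and -1.05, adjusted p = 0.00743 and 0.000773), and was at 0 in all HBL1 libraries. It passed the filter for testing only through Karpas422 (median over all libraries of that line 0.881 CPM). CD3D was highest there in shCTRL, so the filter itself favoured a fall. CD8A reached 2.73 CPM in HBL1. Among the marker genes, CD8A (lower) and SERPINA9 (higher) were called over 3 lines with shSIRT3-1, and CD22, LCK, ITGAX and BCL6 (all lower) with shSIRT3-2. CD8A and ITGAX passed the filter for testing only through HBL1 and were under 1 CPM in the other lines, so their calls cannot show a fall there. Within HBL1, ITGAX was highest in shCTRL, so the filter itself favoured a fall. The CD8A call was made by limma alone, not by edgeR or DESeq2.

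The lines were set apart by these ligands before any knockdown. In the shCTRL libraries ICOSLG, CD86, CD70, CD274 and TNFRSF14 were called in each of the 3 comparisons between lines. CD80 and CD58 passed the filter only through the line in which each was highest, so their levels are compared between lines as a description, with no test. The share of all tested genes called was 54.8% for HBL1 against Karpas422, 54.7% for HBL1 against OCI-Ly1 and 51.1% for OCI-Ly1 against Karpas422, and 19% were called in all 3. The TNFRSF14 difference of OCI-Ly1 from Karpas422 (1.24, adjusted p = 0.00248) was lost when replicate 3 was left out of all groups (0.51, adjusted p = 0.112). HBL1 held the highest CD80, CD86, CD274 and TNFRSF14, OCI-Ly1 the highest ICOSLG and CD70, and Karpas422 the highest CD58.

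Between genes, levels were compared per kilobase of exon (CPM divided by the exon length of the main transcript). CD70 stood first in OCI-Ly1 (125 ± 23.0 CPM per kb, SD, n = 3) and in HBL1 (65.3 ± 1.57), with CD86 next (13.4 ± 3.03 and 28.4 ± 7.38). Next per kilobase came ICOSLG in OCI-Ly1 (5.55 ± 0.797) and TNFRSF14 in HBL1 (13.4 ± 0.811). In Karpas422 CD86 was first (3.69 ± 0.778) and CD70 second (3.19 ± 0.185), with ranges that overlapped. The other overlaps of neighbours in the order were CD58 with TNFRSF14, CD274 with ICOSLG and ICOSLG with PDCD1LG2 in Karpas422, CD274 with PDCD1LG2 in OCI-Ly1 and CD274 with CD80 in HBL1. The lowest level per kilobase was that of CD80 in Karpas422 (0.0105 ± 0.00340), of PDCD1LG2 in OCI-Ly1 (0.00611 ± 0.00733) and of CD58 in HBL1 (0.00312 ± 0.00540).

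**Figure D1:**
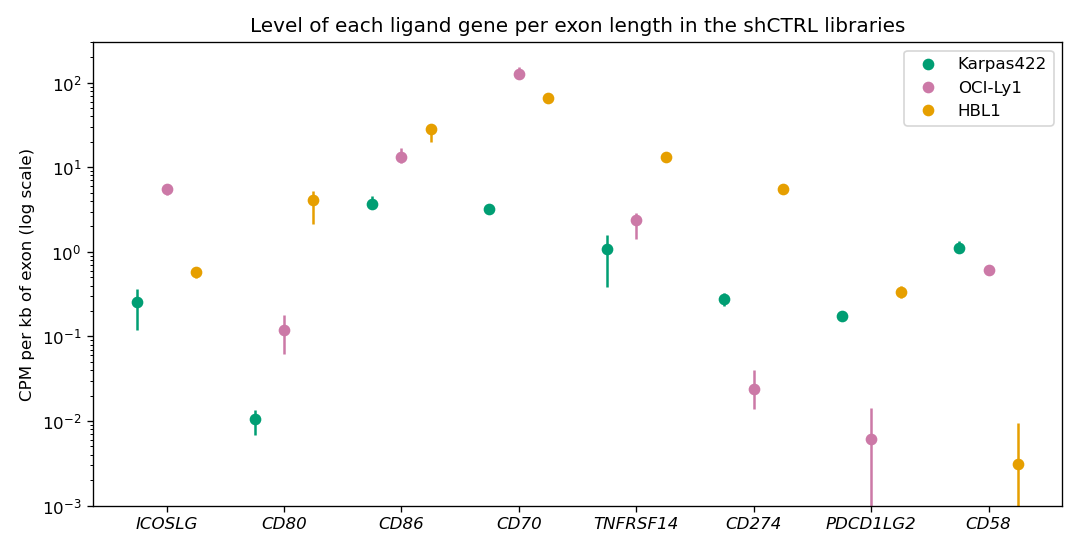
Level of each gene in the shCTRL libraries, as CPM per kilobase of exon on a log axis that ends at 0.001, by cell line. Points are means of 3 libraries and vertical lines run from the lowest to the highest library; a line that reaches the lower edge includes a library at 0. CD70 is highest in OCI-Ly1 and HBL1, and CD58 in HBL1 is the lowest point.

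ICOSLG (chr21:45635265-45661329 in hg19, minus strand) was the gene on which the SIRT3 shRNAs were most at odds. In Karpas422 it stood at 2.00, 2.56 and 0.836 CPM with shCTRL, at 6.86, 5.72 and 15.4 CPM with shSIRT3-1 and at 0.777, 0.436 and 0.347 CPM with shSIRT3-2. The 3 groups did not overlap: each shSIRT3-1 library was above all controls and each shSIRT3-2 library below them. Against shCTRL, shSIRT3-1 gave a log2 difference of 2.30 (SE 0.35, adjusted p = 7.99e-05) and shSIRT3-2 one of -1.54 (SE 0.35, adjusted p = 0.00279). The call with shSIRT3-2 was lost when replicate 2 was left out of all groups (-1.16, adjusted p = 0.115). The direct difference of shSIRT3-2 from shSIRT3-1 in this line was -3.85 (adjusted p = 2.53e-07), a 14.4-fold lower level. The summed B cell markers were also lower with shSIRT3-2 in Karpas422, at 1001 to 1567 CPM against 1709 to 2439 CPM in shCTRL, and their part in this result was not tested. In bulk RNA, fewer cells that express a gene and less RNA per cell cannot be told apart.

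In HBL1, ICOSLG was at 3.49, 4.51 and 4.38 CPM with shCTRL, at 13.7, 7.01 and 7.47 CPM with shSIRT3-1 and at 3.72, 3.32 and 2.81 CPM with shSIRT3-2. All shSIRT3-1 libraries were above the controls, whereas the shSIRT3-2 libraries overlapped them. The rise with shSIRT3-1 was 1.11 on the log2 scale (SE 0.35, adjusted p = 0.0138). It was no longer called without shSIRT3-1 replicate 1 (0.80, adjusted p = 0.0893) or without shCTRL replicate 1 (1.00, adjusted p = 0.0543). With shSIRT3-2 the difference was -0.32 (adjusted p = 0.496), and the direct difference of shSIRT3-2 from shSIRT3-1 was -1.43 (adjusted p = 0.00233).

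OCI-Ly1 had the most ICOSLG, and no difference was called there. Its libraries read 41.3, 43.7 and 32.9 CPM with shCTRL, 42.7, 41.3 and 47.6 CPM with shSIRT3-1 and 45.1, 35.6 and 57.7 CPM with shSIRT3-2, and the groups overlapped. The differences were 0.16 and 0.21 (SE 0.35, adjusted p = 0.825 and 0.767). Over all 3 lines ICOSLG rose by 1.19 with shSIRT3-1 (SE 0.37, adjusted p = 0.0127), with all 9 knockdown libraries above the control mean of their line. With shSIRT3-2 it was -0.55 (adjusted p = 0.246), with 7 of 9 libraries below. The response differed between lines (interaction F test of limma, adjusted p = 0.000143). Of the 7 genes, 1 (ICOSLG) was called over 3 lines with shSIRT3-1, where 13% of all tested genes were called and 3.92% were called higher. Without HBL1 the rise stayed at 1.23 with an adjusted p of 0.0838. The annotation also places a copy of ICOSLG, marked as an artifact, over its exons on the same strand, and that copy is not among the names in the files.

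CD80 (chr3:119243140-119278461, minus strand) was a gene of HBL1, and there it fell with either shRNA. HBL1 libraries held 14.3, 13.8 and 5.77 CPM with shCTRL, 5.22, 5.05 and 5.13 CPM with shSIRT3-1 and 5.93, 5.18 and 5.37 CPM with shSIRT3-2. Control replicate 3 lay far below the other controls, under 1 of the shSIRT3-2 libraries and just above every shSIRT3-1 library. The log2 differences were -1.01 with shSIRT3-1 (SE 0.27, adjusted p = 0.00465) and -0.92 with shSIRT3-2 (SE 0.27, adjusted p = 0.0103). These comparisons share their controls. The call with shSIRT3-2 was lost without shCTRL replicate 1 (-0.69, adjusted p = 0.0696) or replicate 2 (-0.72, adjusted p = 0.0693) and with a pseudocount of 0.01 (adjusted p = 0.0713). When replicate 1 or 2 was left out of all groups, neither call was made (-0.80 and -0.80 with shSIRT3-1, adjusted p = 0.165 and 0.0927, and -0.75 and -0.68 with shSIRT3-2, adjusted p = 0.217 and 0.177). The summed B cell markers of HBL1 were also lower with shSIRT3-2, at 1553 to 1639 CPM against 1910.1 to 2349 CPM in shCTRL, with 5 of the 7 called lower and 1 higher. With shSIRT3-1 the sum was 1975 to 2292 CPM, with 1 called lower and 2 higher. Of all tested genes in HBL1, 20.5% were called lower with shSIRT3-1 and 18% with shSIRT3-2. The part of the B cell markers in these results was not tested.

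In OCI-Ly1 CD80 was scarce, with 0.310, 0.493 and 0.169 CPM in shCTRL, 0.508, 0.401 and 0.525 CPM with shSIRT3-1 and 0.109, 0.0882 and 0.186 CPM with shSIRT3-2. The highest shSIRT3-2 library was above the lowest control, but all were below the shSIRT3-1 libraries. It was called lower with shSIRT3-2 against shCTRL (-0.85, SE 0.27, adjusted p = 0.0436) and against shSIRT3-1 (-1.36, adjusted p = 0.00264). With shSIRT3-1 the difference was 0.51 (adjusted p = 0.245). The shSIRT3-2 call rests on 39 reads against 104, and it moved to an adjusted p of 0.243 without shCTRL replicate 2 and of 0.478 with a pseudocount of 1. It was kept in 11 of 27 fits that left out 1 library, in which the adjusted p ran from 0.0108 to 0.243. The direct difference was lost with a pseudocount of 1 (-0.39, adjusted p = 0.219) and when replicate 1 or 2 was left out of all groups (adjusted p = 0.178 and 0.0861).

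Karpas422 had hardly any CD80, from 0.00896 to 0.0371 CPM, or 9 reads in its 3 control libraries and 5 in each knockdown group. HBL1 controls held 386 times as much by pooled reads, with a 95% exact interval from 203 to 846 that covers counting error only. Over 3 lines CD80 differed by -0.64 with shSIRT3-2 (SE 0.22, adjusted p = 0.021) and by -0.21 with shSIRT3-1 (adjusted p = 0.461). CD80 passed the filter for testing only through HBL1. With shSIRT3-2, 9 of 9 libraries were below their control mean, but those of Karpas422 held 1, 1 and 3 reads, too few to give a direction. Of the 7 genes, 1 (CD80) was called over 3 lines with shSIRT3-2, where 13.5% of all tested genes were called and 10.2% were called lower. That call was lost without HBL1 shCTRL replicate 1 or 2 (adjusted p = 0.0508 and 0.0512), without OCI-Ly1 shSIRT3-2 replicate 1 or 2 (log2 difference -0.58 and -0.56, fold under 1.5) and without OCI-Ly1 as a whole (-0.54, adjusted p = 0.0544). The interaction test gave an adjusted p of 0.00883, but CD80 was near 0 in Karpas422, so the test cannot compare the response of that line. Of the 2737 exon bases of CD80, 798 (29.2%) overlap exons of TIMMDC1 on the other strand. The sources do not say that the counting used strand. TIMMDC1 was at 30.6 to 40.7 CPM in Karpas422, where CD80 was near 0, and differed by -0.41 and -0.21 in HBL1, short of a fold of 1.5.

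CD86 (chr3:121774209-121839986, plus strand) lies 2496 kb from CD80 and was the more abundant of the pair in every line. In HBL1 it was at 89.5, 88.4 and 54.2 CPM with shCTRL, at 38.2, 38.4 and 38.4 CPM with shSIRT3-1 and at 28.3, 32.4 and 25.2 CPM with shSIRT3-2. Every knockdown library was below every control, and replicate 3 was again the low control. CD86 fell by 0.97 on the log2 scale with shSIRT3-1 (SE 0.19, adjusted p = 0.000288). It fell by 1.40 with shSIRT3-2 (SE 0.19, adjusted p = 6.93e-06). Both calls held without any 1 library. The lower B cell markers given for CD80 in HBL1 with shSIRT3-2 stand beside this fall too.

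In OCI-Ly1 no difference of CD86 was called. The libraries held 45.9, 31.0 and 32.5 CPM with shCTRL, 55.1, 44.5 and 54.2 CPM with shSIRT3-1 and 52.3, 48.7 and 49.5 CPM with shSIRT3-2. All shSIRT3-2 libraries were above the controls, and 1 shSIRT3-1 library was under the highest control. The log2 differences of 0.51 and 0.48 (SE 0.19, adjusted p = 0.0948 and 0.102) missed the threshold. Without shCTRL replicate 1 they were 0.68 and 0.66 and were called (adjusted p = 0.0245 and 0.0268).

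In Karpas422 the libraries held 8.98, 12.5 and 8.65 CPM with shCTRL, 6.67, 7.48 and 5.19 CPM with shSIRT3-1 and 10.7, 11.3 and 7.99 CPM with shSIRT3-2. Only the shSIRT3-1 libraries were all below the controls. CD86 fell by 0.63 with shSIRT3-1 (SE 0.19, adjusted p = 0.0186), and the difference with shSIRT3-2 was -0.0045 (adjusted p = 1). The fall is close to the threshold of 1.5-fold, at 1.54-fold. It was under that threshold by edgeR (-0.57, adjusted p = 0.0293) and DESeq2 (-0.55, adjusted p = 0.0187), and its adjusted p was 0.0669 with quantile normalization, 0.123 without shCTRL replicate 2 and 0.117 without shSIRT3-1 replicate 3. Over 3 lines CD86 differed by -0.37 and -0.31 (adjusted p = 0.163 and 0.243), was called without OCI-Ly1 (-0.80 and -0.70, adjusted p = 0.00849 and 0.0198), and its response differed between lines (interaction adjusted p = 9.02e-05).

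CD70 (chr19:6583194-6604114, minus strand), a TNF superfamily ligand, separated the shRNAs in HBL1. It stood there at 60.9, 59.4 and 58.1 CPM with shCTRL, at 35.1, 37.8 and 16.7 CPM with shSIRT3-1 and at 71.0, 63.8 and 83.8 CPM with shSIRT3-2. All shSIRT3-1 libraries were below and all shSIRT3-2 libraries above the controls. It fell by 1.08 with shSIRT3-1 (SE 0.21, adjusted p = 0.000341), while the difference with shSIRT3-2 was 0.28 (adjusted p = 0.309). The direct difference of shSIRT3-2 from shSIRT3-1 was 1.36 (adjusted p = 3.96e-05). These calls held without any 1 library.

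In OCI-Ly1, where CD70 was most abundant, the libraries held 102, 103 and 139 CPM with shCTRL, 99.3, 77.4 and 109.7 CPM with shSIRT3-1 and 109, 90.8 and 126 CPM with shSIRT3-2. In Karpas422 they held 2.72, 3.05 and 2.95 CPM with shCTRL, 3.32, 4.32 and 3.28 CPM with shSIRT3-1 and 2.99, 2.57 and 2.80 CPM with shSIRT3-2. The OCI-Ly1 groups overlapped. In Karpas422 all shSIRT3-1 libraries were above the controls and the shSIRT3-2 libraries overlapped them. The log2 differences were -0.26 and -0.07 in OCI-Ly1 and 0.31 and -0.06 in Karpas422 (adjusted p = 0.481, 0.886, 0.326 and 0.888). The response differed between lines (adjusted p = 0.00166). Over 3 lines CD70 differed by -0.34 with shSIRT3-1 (adjusted p = 0.154) and by 0.05 with shSIRT3-2 (adjusted p = 0.855).

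TNFRSF14 (chr1:2487078-2496821, plus strand) was highest in HBL1, at 23.0, 24.104 and 21.4 CPM with shCTRL, 43.9, 30.7 and 30.5 CPM with shSIRT3-1 and 42.1, 32.9 and 30.2 CPM with shSIRT3-2. Every knockdown library was above every control. The log2 differences were 0.60 and 0.61 (SE 0.34), above 1.5-fold, but the adjusted p-values were 0.152 and 0.156. With the replicate number as a block they were 0.0465 and 0.0472, and without Karpas422 shCTRL replicate 3, a low library for this gene, 0.0409 and 0.0422. With HBL1 fitted alone they were 0.023 and 0.0242.

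In OCI-Ly1 TNFRSF14 was at 2.42, 4.96 and 4.77 CPM with shCTRL, 3.81, 4.20 and 4.02 CPM with shSIRT3-1 and 2.05, 2.21 and 2.70 CPM with shSIRT3-2. In Karpas422 it was at 2.14, 2.69 and 0.650 CPM with shCTRL, 2.31, 2.51 and 1.74 CPM with shSIRT3-1 and 3.60, 2.64 and 2.11 CPM with shSIRT3-2. The shSIRT3-2 libraries of OCI-Ly1 overlapped the low control replicate 1 and were below all shSIRT3-1 libraries. The OCI-Ly1 difference with shSIRT3-2 was -0.72 against shCTRL (adjusted p = 0.17) and -0.77 against shSIRT3-1 (adjusted p = 0.174). With the replicate block these were called (adjusted p = 0.0448 and 0.0429), and the first was also called without shCTRL replicate 1 (-1.05, adjusted p = 0.0426). Without Karpas422 shCTRL replicate 3 both were called as well (adjusted p = 0.0449 and 0.0413). In Karpas422 the differences were 0.44 and 0.75 (adjusted p = 0.377 and 0.105). The second was called without shCTRL replicate 2 (1.12, adjusted p = 0.027). The interaction p adjusted to 0.0731. It was under 0.05 by DESeq2 (0.0242), with a pseudocount of 1 (0.0384), when replicate 3 was left out of all groups (0.0481), and without Karpas422 shCTRL replicate 2 or 3 (0.0273 and 0.0136) or OCI-Ly1 shCTRL replicate 1 (0.0264). Over 3 lines TNFRSF14 was not called, except with shSIRT3-2 when OCI-Ly1 was left out (0.68, adjusted p = 0.0365). The annotation places TNFRSF14-AS1 on the other strand over its exons, and that gene is not among the names in the files.

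CD274 (chr9:5450503-5470566, plus strand) and PDCD1LG2 (chr9:5510531-5571282, plus strand) are neighbours with 40.0 kb between them, and both were highest in HBL1. In HBL1, CD274 was at 21.0, 18.9 and 21.1 CPM with shCTRL, 17.6, 10.1 and 11.3 CPM with shSIRT3-1 and 26.8, 23.3 and 21.99 CPM with shSIRT3-2. The shSIRT3-1 libraries were all below and the shSIRT3-2 libraries all above the controls. The difference with shSIRT3-1 was -0.68 (SE 0.33, adjusted p = 0.0987), which was called with the replicate block (adjusted p = 0.0306), with HBL1 fitted alone (adjusted p = 0.0226), with a pseudocount of 1 (-0.64, adjusted p = 0.00477), without HBL1 shSIRT3-1 replicate 1 (-0.92, adjusted p = 0.0448) and without OCI-Ly1 shSIRT3-1 replicate 2 (adjusted p = 0.0332). With shSIRT3-2 the difference was 0.24 (adjusted p = 0.603). The shRNAs differed directly by 0.92 (adjusted p = 0.0276), a call lost without HBL1 shSIRT3-1 replicate 2 or 3 (adjusted p = 0.0972 and 0.0866) or shSIRT3-2 replicate 1 or 2 (adjusted p = 0.0863 and 0.0555).

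OCI-Ly1 had little CD274, at 0.0621, 0.147 and 0.0498 CPM with shCTRL, 0.209, 0.688 and 0.134 CPM with shSIRT3-1 and 0.0495, 0.0784 and 0.0883 CPM with shSIRT3-2. Replicate 2 of shSIRT3-1 stood well above the rest, and the shSIRT3-1 group overlapped the controls. The gene was called higher with shSIRT3-1 (1.08, SE 0.33, adjusted p = 0.04), on 104 reads against 28. Without that library the difference was 0.56 (adjusted p = 0.293), and without shCTRL replicate 1 or 3 it was 1.00 and 0.94 (adjusted p = 0.0763 and 0.146). With a pseudocount of 1 it was 0.28 (adjusted p = 0.327). The direct difference of shSIRT3-2 from shSIRT3-1 was -1.17 (adjusted p = 0.029). It was lost without shSIRT3-1 replicate 2 (-0.65, adjusted p = 0.207) and without shSIRT3-2 replicate 1, 2 or 3 (adjusted p = 0.0989, 0.0739 and 0.0563).

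In Karpas422 CD274 was at 0.825, 1.01 and 1.18 CPM with shCTRL, 1.11, 0.789 and 1.28 CPM with shSIRT3-1 and 1.15, 0.983 and 2.03 CPM with shSIRT3-2, and the groups overlapped. The differences were 0.06 and 0.38 (adjusted p = 0.935 and 0.45). The response of CD274 differed between lines (adjusted p = 0.0102). PDCD1LG2 was under 1 CPM everywhere. It ranged from 0.692 to 0.952 CPM in the HBL1 controls, from 0.385 to 0.450 CPM in those of Karpas422 and from 0 to 0.0346 CPM in those of OCI-Ly1. With shSIRT3-2 in Karpas422 it was at 0.307, 0.250 and 0.186 CPM, all below the controls. In HBL1 it was at 0.849, 0.636 and 0.459 CPM with shSIRT3-1 and at 0.693, 0.715 and 0.648 CPM with shSIRT3-2, overlapping the controls. Between lines, CD274 and PDCD1LG2 had the same order in shCTRL, with HBL1 first, Karpas422 second and OCI-Ly1 last.

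CD58 (chr1:117057156-117113661, minus strand), the ligand of CD2, was close to absent from HBL1. Its HBL1 libraries gave 1 read in shCTRL, 0 with shSIRT3-1 and 1 with shSIRT3-2, so that 7 of 9 libraries were at 0. The controls of Karpas422 gave 381 reads and those of OCI-Ly1 205. The pooled ratio was 308 for Karpas422 over HBL1 (95% exact interval 55.02 to 12213) and 166 for OCI-Ly1 over HBL1 (29.5 to 6596), intervals of counting error only. Karpas422 held 1.06, 1.10 and 1.48 CPM with shCTRL and OCI-Ly1 0.714, 0.597 and 0.667 CPM, without overlap. Knockdown left CD58 uncalled in Karpas422 and OCI-Ly1, with log2 differences from -0.25 to 0.02. In HBL1, with 2 reads in 9 libraries, a fall could not have been seen. The interaction p adjusted to 0.939, and over 3 lines the differences were -0.04 and -0.10 (SE 0.13, adjusted p = 0.816 and 0.545). These tests include HBL1 and so cannot compare its response with that of the other lines.

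**Figure D2:**
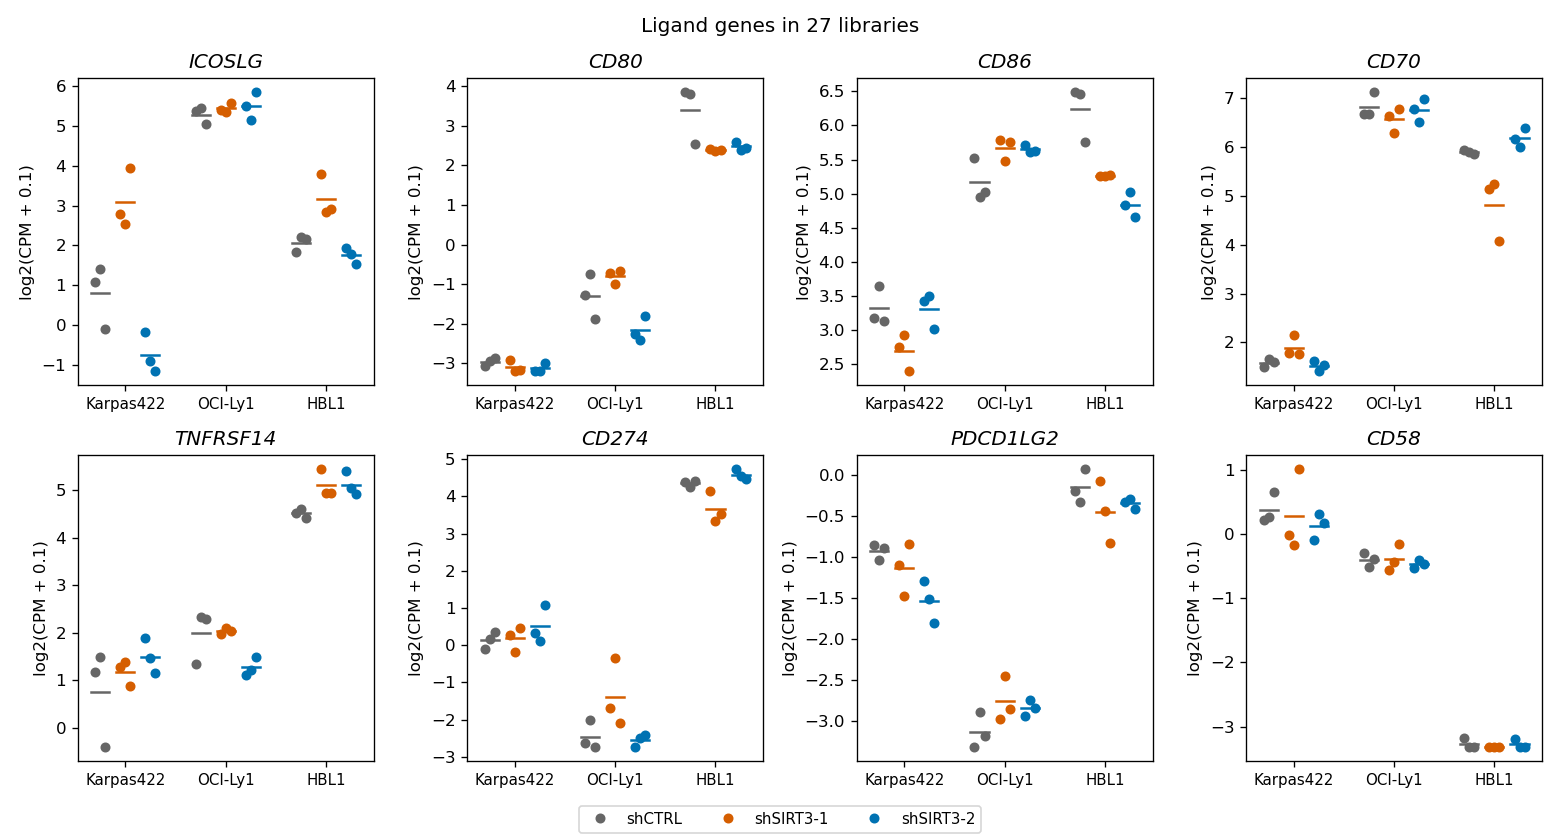
Each of the 8 genes in the 27 libraries, as log2(CPM + 0.1) on the vertical axis, by cell line and shRNA (grey shCTRL, orange shSIRT3-1, blue shSIRT3-2). Points are libraries and bars are means of 3. ICOSLG lies above its controls with shSIRT3-1 and below them with shSIRT3-2 in Karpas422, CD80 and CD86 lie lower with both in HBL1 (except for 1 low CD80 control), and CD58 is at the floor in HBL1.

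Counted within lines, 11 of 42 tests of the 7 genes were called. CD58 in HBL1 and CD80 in Karpas422 were too near 0 for a fall to be seen. The calls in HBL1 were 4 of 7 genes with shSIRT3-1, where 30.3% of all tested genes were called, and 2 of 7 with shSIRT3-2, where the share was 26.3%. In Karpas422 they were 2 of 7 with shSIRT3-1 (14.3% of all tested genes) and 1 of 7 with shSIRT3-2 (14%), and in OCI-Ly1 1 of 7 with shSIRT3-1 (6.04%) and 1 of 7 with shSIRT3-2 (8.27%). Groups that did not overlap were found for 6 of 7 genes in HBL1 with shSIRT3-1 and for 4 of 7 with shSIRT3-2, against 49% and 58.9% of all tested genes. The median log2 difference of the 7 genes was -0.68 in HBL1 with shSIRT3-1, against -0.09 over all genes, and -0.0017 with shSIRT3-2, against -0.07. Quantile normalization moved the median of all genes in HBL1 to 0.04 and 0.03, and the HBL1 calls of these genes did not change direction.

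A direct comparison of the shRNAs within each line called 7 of 21 tests. They were ICOSLG and CD86 in Karpas422 (11% of all tested genes called), CD80 and CD274 in OCI-Ly1 (5.72%) and ICOSLG, CD70 and CD274 in HBL1 (31.2%). The CD86 difference in Karpas422 (0.62, adjusted p = 0.0256) was lost without shSIRT3-1 replicate 1 or 3 (adjusted p = 0.0533 and 0.142) or shSIRT3-2 replicate 1 or 2 (adjusted p = 0.078 and 0.0963), and was under 1.5-fold by edgeR (0.57) and DESeq2 (0.56). Over 3 lines 1 gene of 7, ICOSLG, was called, lower with shSIRT3-2 than with shSIRT3-1 (log2 difference -1.74, SE 0.37, adjusted p = 0.000822), where 11.3% of all tested genes were called. The difference in response between lines was called for 5 of 7 genes, against 41.8% of all tested genes. The exceptions were TNFRSF14 and CD58, of which CD58 was at the floor in HBL1.

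**Figure D3:**
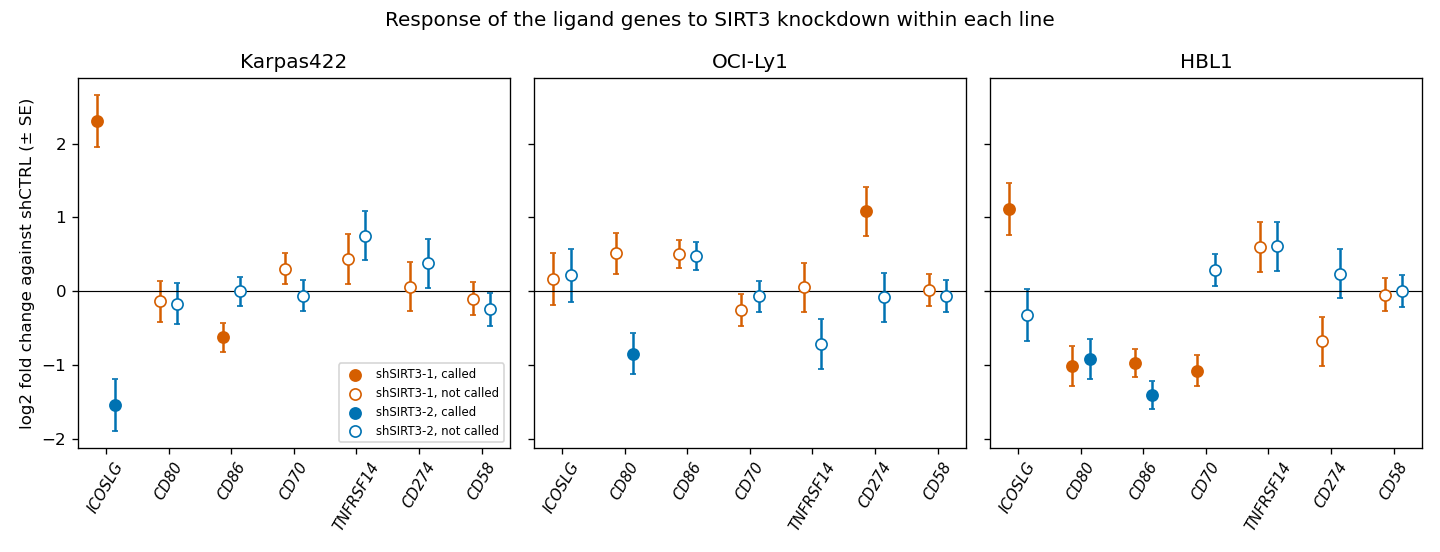
Log2 fold change of 7 genes against shCTRL within each cell line, for shSIRT3-1 (orange) and shSIRT3-2 (blue). Points are limma estimates from 3 against 3 libraries, bars are the SE, and filled points were called. ICOSLG points lie far apart in Karpas422 (2.30 and -1.54), and the filled CD80 and CD86 points of HBL1 lie between -0.92 and -1.40.

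Other genes of the same pathway were read from lists of related genes. Of 7 other B7 and butyrophilin ligands tested, 1 was called over 3 lines with each shRNA, higher with shSIRT3-1 and lower with shSIRT3-2. Of all tested genes, 3.92% were called higher with shSIRT3-1 and 10.2% lower with shSIRT3-2. The median log2 difference of the list was -0.06 and -0.30, against -0.05 and -0.03 over all genes. VSIR (VISTA), an inhibitory B7 relative, rose with shSIRT3-1 (1.26, SE 0.23, adjusted p = 0.000156) and was at -0.43 with shSIRT3-2 (adjusted p = 0.145). Its means were 0.361 CPM with shCTRL and 1.85 CPM with shSIRT3-1 in OCI-Ly1. BTN3A3, a butyrophilin, fell with shSIRT3-2 (-0.65, adjusted p = 0.0327), a call that edgeR did not make, and was at -0.06 with shSIRT3-1 (adjusted p = 0.876). BTN3A1, which presents phosphoantigens to gamma delta T cells, was not called over 3 lines (-0.15 and -0.57, adjusted p = 0.482 and 0.00807, the second under 1.5-fold) and fell in HBL1 with shSIRT3-2 (-1.17, adjusted p = 0.000203).

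Of 11 other TNF superfamily genes of B cells, 4 were called over 3 lines with shSIRT3-1 and 5 with shSIRT3-2, all lower, against 9.09% and 10.2% of all tested genes called lower. By DESeq2 these counts were 2 and 8, and by edgeR 4 and 8. The list's median was -0.53 and -0.68. TNFRSF17 (BCMA), the plasma cell receptor of BAFF and APRIL, fell by 1.62 with shSIRT3-1 (SE 0.36, adjusted p = 0.000969). With shSIRT3-2 TNFRSF17 fell by 1.33 (adjusted p = 0.00525). Its HBL1 mean was 53.0 CPM with shCTRL, 9.42 CPM with shSIRT3-1 and 9.61 CPM with shSIRT3-2, and its response differed between lines (adjusted p = 0.00373). TNFSF8 (CD30 ligand) differed by -0.90 and -0.80 (SE 0.16, adjusted p = 8.51e-05 and 0.000343) and was called with each. TNFSF14 (LIGHT), a ligand of TNFRSF14, was near 0 outside HBL1. There its mean went from 2.14 CPM with shCTRL to 0.386 CPM with shSIRT3-1 (-2.24, adjusted p = 1.68e-07) and 1.00 CPM with shSIRT3-2 (-1.02, adjusted p = 0.00127). In HBL1, 1 of the 11 rose and 7 fell with shSIRT3-1, and 1 rose and 7 fell with shSIRT3-2, where 20.5% and 18% of all tested genes were called lower.

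Of 15 adhesion and other synapse ligands, 3 rose and 2 fell with shSIRT3-1 and 1 rose and 3 fell with shSIRT3-2 over 3 lines, and the medians were 0.19 and -0.32. Of all tested genes, 13% were called with shSIRT3-1 (3.92% higher and 9.09% lower) and 13.5% with shSIRT3-2 (10.2% lower). CD48, the ligand of CD244 and a low-affinity partner of CD2 beside CD58, differed by -1.34 and -1.08 (SE 0.32, adjusted p = 0.00164 and 0.00905). SEMA4A, a semaphorin that costimulates T cells, differed by -0.80 and -1.44 (SE 0.23, adjusted p = 0.00687 and 2.61e-05). Both CD48 and SEMA4A were called with each shRNA, in comparisons that share their controls. SEMA4D (CD100) rose with shSIRT3-2 (1.02, SE 0.21, adjusted p = 0.000442) and was at 0.49 with shSIRT3-1 (adjusted p = 0.0615).

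Among the counter-receptors 6 of 13 were tested, CD28, ICOS and CTLA4 not among them, and 1 was called with each shRNA. That was RGMB, lower with both, which binds PDCD1LG2 (-0.70 and -0.92, SE 0.22, adjusted p = 0.0139 and 0.00195). Over all lines, 9.09% of all tested genes were called lower with shSIRT3-1 and 10.2% with shSIRT3-2. LAG3, an inhibitory receptor of T cells that was at 41.7 CPM in the HBL1 controls and averaged at most 0.203 CPM in each group of the other lines, fell in HBL1 with shSIRT3-1 (-1.79, adjusted p = 0.000126). With shSIRT3-2 LAG3 was at -0.18 there (adjusted p = 0.688). BTLA, the receptor of TNFRSF14 that B cells also carry, was not called (-0.10 and -0.52, adjusted p = 0.782 and 0.0968).

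Of 17 genes that regulate the ligands at the surface or as RNA, 0 were called over 3 lines with shSIRT3-1 by limma, edgeR or DESeq2 (5 had an unadjusted limma p under 0.05), and 2 fell with shSIRT3-2. Of all tested genes, limma called 13% with shSIRT3-1 and 10.2% lower with shSIRT3-2. CMTM6, which keeps CD274 protein at the cell surface, fell by 1.42 with shSIRT3-2 (SE 0.11, adjusted p = 1.27e-09) and was called lower in each line with that shRNA (-1.88 in HBL1, -1.44 in OCI-Ly1 and -0.92 in Karpas422). With shSIRT3-1 CMTM6 was at -0.17 over 3 lines (adjusted p = 0.225), and its response differed between lines (adjusted p = 0.000619). Its relative CMTM4 was at -0.51 and -0.42 (adjusted p = 0.0657 and 0.127). IFNGR1, a chain of the interferon-gamma receptor, fell by 0.63 with shSIRT3-2 (SE 0.12, adjusted p = 0.000195) and was at -0.24 with shSIRT3-1 (adjusted p = 0.108). RNA does not show how much of any ligand was at the cell surface.

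Of 12 genes around CD274 and PDCD1LG2 on chromosome 9, 1 rose with shSIRT3-1 and 2 fell with shSIRT3-2 over 3 lines. Of all tested genes, 3.92% were called higher with shSIRT3-1 and 10.2% lower with shSIRT3-2. CDC37L1 rose with shSIRT3-1 (0.62, SE 0.10, adjusted p = 3.68e-05), and its difference of -0.43 with shSIRT3-2 was under 1.5-fold. RLN2, a relaxin, fell with shSIRT3-2 (-0.62, adjusted p = 0.00595). PLGRKT, a plasminogen receptor gene, was at -0.53 and -0.38 (adjusted p = 9.54e-06 and 0.000473), both under 1.5-fold.

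**Figure D4:**
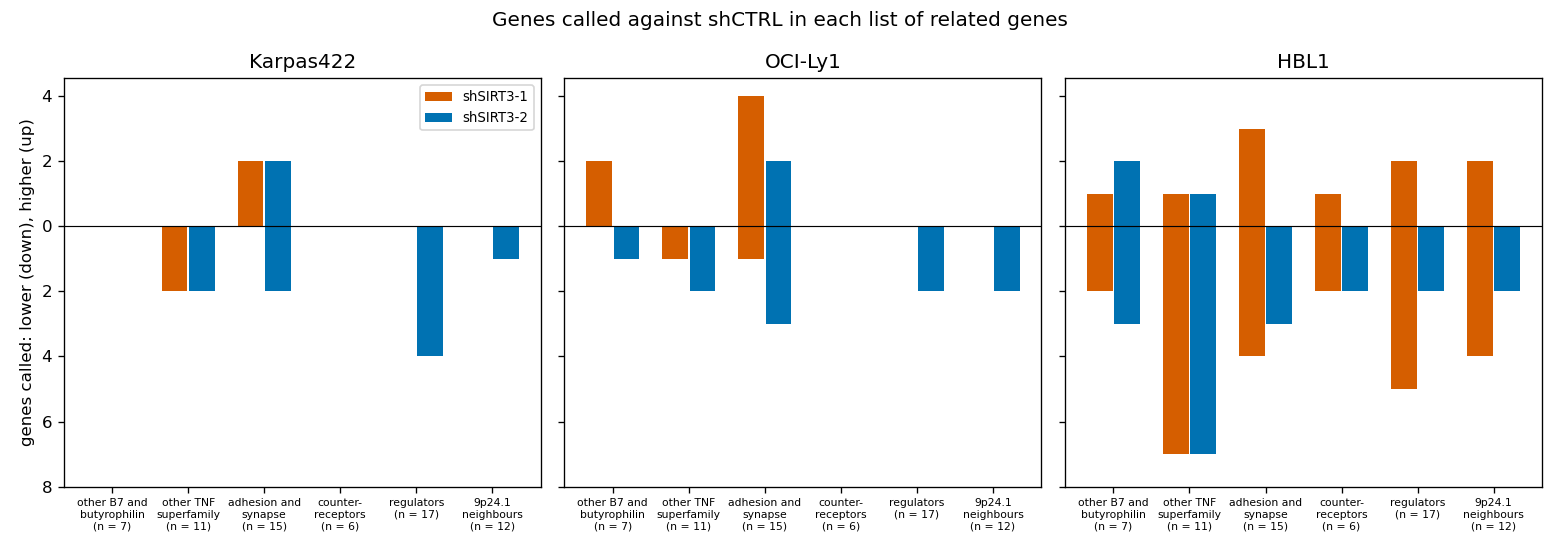
Number of genes called against shCTRL in 6 lists of related genes, within each cell line, for shSIRT3-1 (orange) and shSIRT3-2 (blue); bars above 0 count genes called higher, bars below 0 genes called lower, and n is the number tested. The tallest bars are the 7 TNF superfamily genes called lower in HBL1 with each shRNA.

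The genes most like the called members over the 27 libraries were found by Pearson's r of log2 values centred on the mean of each line. The correlations are descriptions, since the libraries share lines, groups and controls. For ICOSLG they were FFAR1 (r = 0.90), MYEOV (0.88) and VWCE (0.86), all low genes with medians of at most 0.640 CPM. MYEOV had a median of 0 CPM, and within lines it was called only in Karpas422 (3.59 with shSIRT3-1 and -1.08 with shSIRT3-2). For CD80 they were IL15RA (0.85), MNS1 (0.83) and ZNF682 (0.81), and for CD86 ZNF41, FAM175B and DHRS4-AS1 (0.90, 0.90 and 0.82). CD70 was most like PTMS, FBXO6 and CPNE8 (0.91, 0.88 and 0.87), and CD274 most like ZC3H12C, ARHGAP10 and KIF21A (0.78, 0.77 and 0.76). Medians under 1 CPM were also those of IL15RA, FBXO6, CPNE8, ZC3H12C, ARHGAP10 and KIF21A, so such an r can rest on few libraries. Among the 7 genes themselves the highest r was that of CD80 with CD86 (0.45), and ICOSLG had r between -0.28 and 0.17 with the other 6.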

How the data were processed

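RNA-seq libraries of 3 lymphoma lines were analysed from the deposited tables, 1 per library. Per the study's methods and the submitters' processing notes, reads (paired, from a random-primed TruSeq kit) were aligned to hg19 with STAR and assigned to RefSeq genes with Rsubread. The values the authors deposited are CPM although the tables are named as FPKM. In every library 100% of values were whole multiples (within 0.1) of the worth of 1 read, whatever the gene's length, so reads were recovered by division, and the genes summed to between 40.3% and 45.6% of the 1000000 that CPM should reach. In 2 OCI-Ly1 libraries (shCTRL replicate 3 and shSIRT3-2 replicate 1) that worth lies so near 0.01 that values rounded to 2 decimals would look the same. The sources used here do not say what total the CPM refer to. No table held columns of the authors' own comparisons.

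Groups came from the sample titles. Genes with at least 1 CPM in 3 of 27 libraries were fitted with limma 3.58.1 (R 4.3.3) on log2(CPM + 0.1) with an intensity trend. The model was additive (line and shRNA) over 3 lines and used 9 group means within lines, between lines in shCTRL and for the difference in response (F test with 4 terms). Genes were called at a fold change above 1.5 with p, adjusted by Benjamini-Hochberg, below 0.05 (for the F test by the p alone). On simulated counts with 2-fold changes the limma fit recovered 93.9% of changed genes over 3 lines and 86.6% in HBL1. Of 12528 unchanged genes it called 0 over 3 lines and 21 in HBL1. All genes were given 1 spread between replicates (dispersion 0.03). The shares do not hold for genes that vary more, such as ICOSLG in Karpas422 with shSIRT3-1 (9.32 ± 5.29 CPM, SD). The alternatives were other pseudocounts, filters and scalings, edgeR 4.0.16 and DESeq2 1.42.0 on the recovered reads, the replicate block, each line or the shCTRL libraries fitted alone, and leaving out each replicate, library or line.

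The replicate numbers in the titles were checked as pairs: 26 of 27 same-numbered pairs of groups within a line had a correlation of deviations over 0.1 (mean 0.32, against -0.14 for other pairs). The main fit did not use the replicate numbers, so its p-values are unpaired in all lines, and the replicate block was an alternative only. The exception was Karpas422 shCTRL with shSIRT3-2 (lowest value 0.014). For comparisons that use that pair of groups, the block is not backed by the numbers.

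The 8 genes and the 12 lists of genes were chosen with earlier results of these data known. Beside the 8 genes and SIRT3, the text names from each list the genes called in the same direction with both shRNAs over 3 lines and up to 3 with the largest mean change, and the 3 genes most correlated with each called member. Genes named for a marker, an overlap or the count they make up fall outside that rule and were named after their values were seen. Gene positions come from a GENCODE annotation of hg19 and promoters from RefSeq. Protein and shRNA sequences were not analysed here.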

Additional observations from a re-analysis of the deposited data

Results flagged for a closer look

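The response to the SIRT3 shRNAs differed between the 3 lines for 5 of the 7 ligand genes tested, by the limma interaction test with p adjusted over all genes, against 41.8% of all tested genes. The adjusted p was 0.000143 for ICOSLG, 0.00883 for CD80, 9.02e-05 for CD86, 0.00166 for CD70 and 0.0102 for CD274. It passed 0.05 for CD80 with quantile normalization (0.0611), for CD80 and CD274 when replicate 1 (0.303 and 0.181) or 2 (0.096 and 0.0897) was left out of all groups, and for CD70 without replicate 1 (0.101). CD80 was near 0 in Karpas422, so for CD80 the test cannot compare the response of that line. ICOSLG was called in Karpas422 and HBL1, CD86 was called lower in HBL1 with each shRNA and in Karpas422 with shSIRT3-1 and was not called in OCI-Ly1, and CD70 was called in HBL1. SIRT3, the target, also differed between lines in its response (adjusted p = 0.00291), with log2 differences from -0.88 in Karpas422 with shSIRT3-2 to -2.78 in OCI-Ly1 with shSIRT3-1.

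Among the related genes the same test gave adjusted p-values of 0.0179 for BTN3A1, 0.00581 for BTN3A3, 9.4e-05 for TNFSF14, 0.00373 for TNFRSF17, 0.00207 for LAG3 and 0.0244 for RGMB. It gave 0.000619 for CMTM6, 0.0299 for CMTM4, 0.00956 for IFNGR1 and 0.00787 for PLGRKT. TNFSF14 and LAG3 were near 0 outside HBL1, so for these genes the test cannot compare the response of the other lines. CMTM6 was called lower with shSIRT3-2 in each line, so that its lines differed in size, and with shSIRT3-1 it was at -0.60 in HBL1, -0.22 in OCI-Ly1 and 0.32 in Karpas422.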

How the results depend on the processing

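The count of 1 ligand gene called over 3 lines with shSIRT3-1 was 2 without Karpas422, 2 without OCI-Ly1 and 0 without HBL1, and from 0 to 1 when a replicate number or library was left out; ICOSLG lost its call without replicate 1 or 3. The count of 1 with shSIRT3-2 (CD80) was 0 with a pseudocount of 1, 0 with quantile normalization and from 0 to 1 in the leave-outs. Without OCI-Ly1 it was 2, which were CD86 and TNFRSF14 and not CD80. Without HBL1 it was 0, but CD80 was then not tested, since it passed the filter only through HBL1. The 11 calls within lines ranged from 5 to 14, the 8 between shRNAs from 3 to 9 (5 with a pseudocount of 1) and the 5 differences between lines from 2 to 6 when replicates or libraries were left out. The cause was not tested, but each such fit has fewer samples. Under the other alternatives the calls within lines ranged from 8 to 16, the highest with the replicate block. Those between shRNAs ranged from 5 to 9 and the differences between lines from 4 to 6. Beside the losses given in the report, ICOSLG in HBL1 lost its call with shSIRT3-1 and its direct difference without replicate 1 (adjusted p = 0.293 and 0.0671). CD274 lost its direct difference in HBL1 without replicate 1, 2 or 3 (0.108, 0.0564 and 0.071) and with a pseudocount of 0.01 (0.0842). In OCI-Ly1 quantile normalization and no filter on low values ended the calls of CD80 with shSIRT3-2 (0.109 and 0.0766) and of CD274 with shSIRT3-1 (0.151 and 0.0655).

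Differences that were not called changed sign in places. Without HBL1, CD70 was at 0.023 with shSIRT3-1 and CD86 at 0.24 with shSIRT3-2, and without Karpas422 TNFRSF14 was at -0.057 with shSIRT3-2. Between shRNAs over 3 lines, CD80 was at 0.032 without OCI-Ly1 and CD70 at -0.088 without HBL1, and CD274 (0.02) was at -0.18 with a pseudocount of 0.01, -0.064 by edgeR, -0.29 by DESeq2, -0.12 without Karpas422, -0.43 without HBL1 and from -0.18 to 0.26 in the leave-outs. No call of a ligand gene changed sign under any alternative.

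With the replicate block no call was lost. Beside the calls given in the report, it added TNFRSF14 in Karpas422 with shSIRT3-2 (0.75, adjusted p = 0.0243) and the difference of TNFRSF14 between lines (adjusted p = 0.0102), where the numbers do not pair the samples. Quantile normalization raised the share of higher calls over all genes from 30.1% to 45.4% with shSIRT3-1 and from 24.4% to 42.6% with shSIRT3-2. CD80 in Karpas422, CD274 and PDCD1LG2 in OCI-Ly1 and CD58 in HBL1 are limited by depth.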
